A study of Mus musculus with 6 samples.

Results

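T-antigen mesenchymal cells were cells of C3(1)-Tag mouse mammary tumours that carried transcripts of the SV40 large T antigen, the oncogene of this model, together with transcripts of the fibrillar matrix made by fibroblasts, and no transcript of the epithelial adhesion gene Epcam or of the leukocyte gene Ptprc. They were chosen on raw unique molecular identifiers (UMIs, each standing for 1 captured transcript). A cell needed at least 1 T-antigen UMI, no Epcam and no Ptprc UMI, at least 2 UMIs of Dcn (decorin, a matrix proteoglycan) and at least 5 UMIs of the collagen genes Col1a1 and Col3a1 combined. Cells with under 200 detected genes, or with 10% or more of their UMIs from mitochondrial genes, were left out beforehand. In all, 76 cells met the rule: 15 of 4476 kept cells in Tumor 1 and 61 of 2606 in Tumor 2, which is 0.335% and 2.34%. They were 76 of 7082 kept tumour cells and of 22244 kept cells in the 6 libraries of the series.

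All libraries came from female C3TAG mice, which the study kept on the FVB/NJ strain and in which the C3(1) promoter, known for its activity in mammary epithelium, drives the T antigen. The groups, with 2 libraries each, were whole mammary glands at 5 weeks of age (Prepuberty), whole glands at 14 weeks (DCIS, for ductal carcinoma in situ) and palpable tumours of mice older than 18 weeks (Tumor), so every group carried the transgene. Whether the 2 libraries of a state stem from separate mice is not given in the labels. The study's text describes these libraries as technical replicates at 1 point and as 2 specimens per state at another. The p-values can therefore not be taken to cover the spread between animals. They rest on how far differences between cell classes varied between the Tumor libraries, and on variance estimates shared across genes. For Tumor 2 the study names a later version of the 10x 3′ kit than for the other libraries, whereas the labels name the same version for all, so the kit and the tumour cannot be told apart in any difference between Tumor 1 and Tumor 2.

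Large T antigen binds the RB and p53 tumour suppressor proteins and disables both. RB normally restrains the genes of DNA replication, and its loss is known to go with high levels of Cdkn2a, which encodes the inhibitors p16 and ARF. Mammary fibroblasts make Dcn, collagens and the PDGF receptor Pdgfra. Epithelial tumour cells that take on mesenchymal features can express several of the same genes, with Vim and the transcription factors of the Zeb and Prrx families, while they lose Cdh1 and the claudins. Genes of the matrix alone therefore do not separate a fibroblast from such a cell.

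In each library the T-antigen mesenchymal cells were compared with 2 other classes. T-antigen-zero stromal cells passed the same gate but had no T-antigen UMI, with 92 cells in Tumor 1 and 83 in Tumor 2. T-antigen epithelial cells had at least 1 Epcam UMI, no Dcn UMI and at least 1 T-antigen UMI, with 2353 and 888 cells. Among the 107 and 144 cells of the stromal gate, the share with T antigen was 14.0% in Tumor 1 (exact 95% interval 8.06 to 22.1) and 42.4% in Tumor 2 (34.2 to 50.9). The same gate gave 3 of 1317 cells in Prepuberty 1, 1 of 332 in Prepuberty 2, 1 of 196 in DCIS 1 and 0 of 235 in DCIS 2, where a count of 0, taken as under 3 counts, allows a share of up to 1.28% (the exact 95% limit is 1.56%). Intervals and limits cover counting error only.

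Cells of the rule were unequal in depth and in T antigen. The median was 9080 UMIs per cell in Tumor 1 (5335 to 34586) and 18214 in Tumor 2 (1654 to 55823), against 9913 and 11513 in T-antigen-zero stromal cells and 15199 and 20742.5 in T-antigen epithelial cells. In Tumor 1, 14 of the 15 cells had exactly 1 T-antigen UMI and 1 cell had 2. In Tumor 2, 29 cells had 1, 11 had 2 and 21 had 3 or more, up to 6. A deeper cell is more likely to show at least 1 UMI of any gene, so depth moved with the choice of cells in Tumor 2, and its part in the results was not tested beyond the thinning described next.

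T antigen was set against cells that should lack it, since free RNA in a droplet can give a UMI to any cell. On plain CPM, the UMIs of a gene as counts scaled to the same total for each class, all cells of the stromal gate held 14.5 CPM of T antigen in Tumor 1 and 52.7 in Tumor 2. Leukocytes (Ptprc UMIs, no Epcam, no Dcn) held 7.16 and 6.33 CPM, endothelial cells 2.39 and 0 CPM, and all epithelial-gate cells 260 and 60.2 CPM. When each cell was thinned to 5000 UMIs, 16.9% of stromal-gate cells of Tumor 2 kept a T-antigen UMI (23 of 136, 11.0 to 24.3). The share was 1.06% for leukocytes (1 of 94, 0.0269 to 5.79) and 25.3% for epithelial-gate cells (23.1 to 27.6). Shallower cells were left out, and these were 149 of 233 leukocytes in Tumor 1 and 128 of 222 in Tumor 2. The intervals of stromal-gate cells and leukocytes did not overlap in Tumor 2. In Tumor 1 the thinned shares were 10.4% for the stromal gate (10 of 96, 5.11 to 18.3), 4.76% for leukocytes (4 of 84, 1.31 to 11.7) and 53.1% for the epithelial gate (51.3 to 54.9). Here stromal-gate cells and leukocytes overlapped, so at this depth the T antigen of the 15 cells of Tumor 1 could not be told apart from the background. Before thinning, 3.43% and 2.25% of leukocytes had T antigen, at medians of 3708 and 4046 UMIs.

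**Figure D1:**
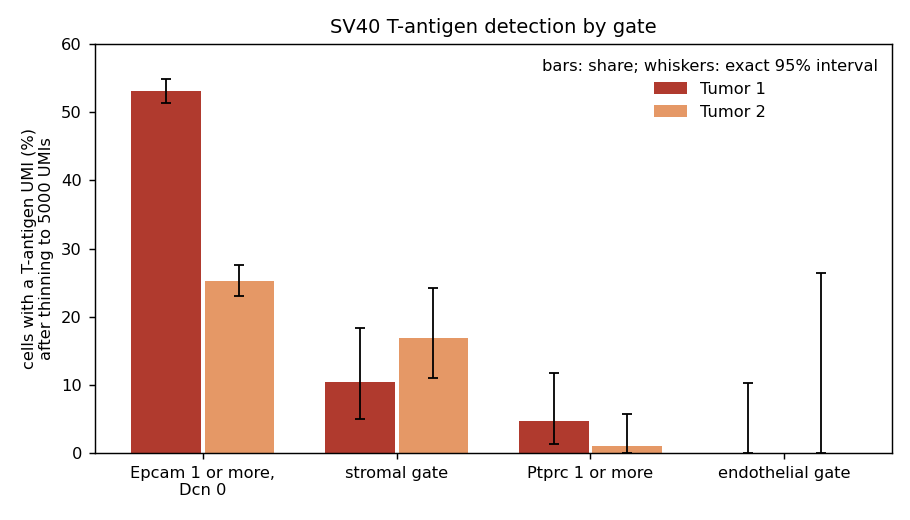
Share of cells with at least 1 T-antigen UMI after each cell was thinned to 5000 UMIs, in percent, for 4 gated classes in each Tumor library, with exact 95% intervals as error bars. In Tumor 2 the stromal gate stood at 16.9% and leukocytes at 1.06%, whereas in Tumor 1 the intervals of these classes overlapped.

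T antigen was also set against other epithelial transcripts. In Tumor 2 the stromal-gate level of T antigen was 87.5% of the epithelial-gate level, whereas 13 luminal genes with at least 50 CPM in the epithelial gate stood at a median of 1.31% (0 to 14.1) and 5 basal genes at 12.6% (2.35 for Krt17 to 35.6 for Lgals7). In Tumor 1, T antigen stood at 5.58% and 12 luminal genes at a median of 2.07% (1.38 to 4.79), with 4 basal genes at 2.12%. Leukocytes held T antigen at 10.5% of the epithelial level in Tumor 2 and 2.76% in Tumor 1. Their median for the same luminal genes was 4.09% in Tumor 2 and 2.79% in Tumor 1, and for the basal genes 5.34% and 2.95%, so of these stromal medians only the basal one of Tumor 2 was above that of leukocytes.

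By their T antigen, 14 of 15 members of Tumor 1 and 29 of 61 of Tumor 2 sat at the edge of the rule, with exactly 1 UMI. By the other limits, 2 cells of Tumor 1 and 1 of Tumor 2 had exactly 2 Dcn UMIs, and 0 and 5 cells had 5 or 6 collagen UMIs. Just outside, 0 and 2 cells had 1 Dcn UMI with all else met, 0 and 5 had 3 or 4 collagen UMIs, and 23 and 22 had Epcam UMIs, of which 7 and 13 had exactly 1. Cells left out for Epcam alone thus outnumbered the members in Tumor 1. In Tumor 2 Cdkn2a stood at 2105 CPM in the 5 cells just inside the collagen limit, at 2853 CPM in the 5 just outside and at 1249 CPM in the 13 with 1 Epcam UMI. Members of the 2 libraries shared no barcode, while 13 barcodes were shared among all kept cells of the Tumor libraries. Removing the highest doublet scores (160 and 54 cells) took 0 of 15 and 1 of 61 members.

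The gate genes themselves were high in the members by construction. Dcn stood at 2174 CPM in Tumor 1 and 3871 CPM in Tumor 2, beside 3429 and 5294 CPM in T-antigen-zero stromal cells. Col1a1, a chain of type I collagen, stood at 9300 and 1234 CPM, beside 9437 and 2096 CPM. Col3a1, the chain of type III collagen, stood at 8663 and 3138 CPM, beside 11234 and 6746 CPM. All 15 genes of a fibroblast list were detected in the members of both libraries, with summed levels of 18322 and 4919 CPM against 21336 and 9566 CPM in T-antigen-zero stromal cells. T-antigen epithelial cells held 552 and 503 CPM of the same list, also with all 15 genes detected, so detection alone did not set the classes apart. The members' sums lay well above the epithelial ones in both libraries, and in Tumor 2 also well below that of T-antigen-zero cells.

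Luminal, immune, endothelial and Schwann markers were low or missing, and basal markers were mixed. Of 15 luminal markers, 5 were at 0 in the members of Tumor 1 and 3 in those of Tumor 2, and their summed level was 165 and 160 CPM, against 155 and 80.2 CPM in T-antigen-zero stromal cells and 7209 and 3702 CPM in T-antigen epithelial cells. Basal markers, which include the contractile genes Acta2 and Tagln, summed to 3717 and 816 CPM with 6 and 2 of 14 at 0, against 2173 and 321 CPM in T-antigen-zero stromal cells and 3836 and 3599 CPM in T-antigen epithelial cells. In Tumor 1 most of the members' basal sum was contractile, with Acta2 at 2157 CPM and Tagln at 1377 CPM, while Krt14 stood at 11.4 CPM against 467 CPM in T-antigen epithelial cells. Trp63, a basal transcription factor, had no UMI in members of Tumor 1, and in Tumor 2 it stood at 40.9, 24.0 and 37.9 CPM in members, T-antigen-zero stromal and T-antigen epithelial cells. Of 10 endothelial markers 7 and 4 were at 0 (79.7 and 18.9 CPM in sum), of 10 macrophage markers 4 and 4 (68.3 and 15.7 CPM), and of 8 lymphocyte markers 6 and 7 (56.9 and 0.787 CPM). Schwann markers were at 0 for 6 of 8 genes in both libraries, pericyte markers for 3 and 0 of 10 (279 and 292 CPM), adipocyte markers for 5 and 4 of 5, and red cell markers for 5 and 3 of 5. Their part in the results was not tested.

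The first comparison asked whether cells of the same stromal gate differ with the detection of T antigen. A T-antigen UMI was found in 67.9% and 54.6% of epithelial-gate cells of Tumor 1 and Tumor 2. A cell with 0 UMIs may still carry the transcript, so the T-antigen-zero class can hold undetected carriers. UMIs were summed per library and class and fitted in 1 model over the 6 sums of the Tumor libraries with edgeR's quasi-likelihood test, with the library as a block. Of 9894 genes tested, 0 passed an adjusted p of 0.05 (Benjamini-Hochberg), so 0% of the background was called. An unadjusted p under 0.05 was reached by 149 genes, 29 higher and 120 lower in T-antigen mesenchymal cells, and DESeq2 called 1 gene, Apod. The count of calls rested on the model: with the third class left out, 14 genes passed, all lower, and with no filter on low counts 54 passed, of which 2 were higher and 52 lower. With members limited to cells with at least 2 T-antigen UMIs, 44 passed, all lower, although Tumor 1 then held 1 cell.

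The 6 genes with the smallest p, among those lower in members of both libraries, did not pass the threshold. In this paragraph and the next, CPM carry edgeR's TMM scaling. Apod (apolipoprotein D, a lipid carrier; chr16:31296192-31314808, mm10) stood at 105 CPM in members and 1025 in T-antigen-zero stromal cells of Tumor 1, and at 5.33 and 207 in Tumor 2 (log2 difference -4.13, SE 0.65). In Tumor 1, 610 of the 743 Apod UMIs of T-antigen-zero stromal cells came from 1 cell, and without it the plain level was 145 CPM against 91.1 in members. With that cell left out, the log2 difference was -2.92, with an adjusted p of 1 in edgeR's quasi-likelihood test and 0 genes called. C3, the central complement component, stood at 32.9 against 235 CPM in Tumor 1 and 44.0 against 165 in Tumor 2 (log2 difference -2.33, SE 0.42). Prg4, a lubricating proteoglycan, stood at 13.2 against 60.7 and 11.3 against 95.7 CPM, with 13 of its 17 member UMIs in Tumor 2 from 1 cell. Kitl, the ligand of the Kit receptor, stood at 6.58 against 31.7 and 9.33 against 63.8 CPM. T-antigen epithelial cells also held C3 (23.4 and 32.8 CPM) and Kitl (22.3 and 28.1 CPM). Sned1, a matrix protein, stood at 26.3 against 91.1 and 19.3 against 87.3 CPM. The adhesion gene Cadm3 had 1 UMI in all members of both libraries, against 37 and 82 UMIs in T-antigen-zero stromal cells. The unadjusted p of Apod was 0.000461 in edgeR's quasi-likelihood test, and each of these 6 genes had an adjusted p of 1.

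On the higher side several of the genes with the smallest p rested on single cells. Cxcl10, an interferon-induced chemokine, stood at 204 against 24.8 CPM in Tumor 1 and 22.0 against 12.6 in Tumor 2 (log2 difference 1.94, SE 0.59, adjusted p = 1 by edgeR's quasi-likelihood test), and its sign turned when cells with epithelial UMIs were left out (-2.80). In Tumor 1, 27 of its 31 member UMIs came from 1 cell, and in Tumor 2, 29 of 33. Acta2, smooth muscle actin, stood at 2495 against 1422 CPM in Tumor 1 and 72.6 against 11.8 in Tumor 2 (log2 ratios of 0.81 and 2.21 with 5 CPM added to both levels). Of its member UMIs 188 of 379 and 41 of 109 came from 1 cell of each library. Named genes had to share a sign in both libraries, and with members of at least 2 T-antigen UMIs that of Acta2 turned (-0.83). The scaffold gene Tanc2, the nuclear import gene Kpna2 and the microtubule-linked gene Jpt1 had log2 differences of 1.55, 1.78 and 0.71. Jpt1 stood at 309 against 168 CPM and 239 against 162 CPM, with 24 of its 47 member UMIs in Tumor 1 from 1 cell. Lad1, an anchoring filament gene of epithelium, had 1 and 7 UMIs in the members.

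Gene lists were then described by their counts and medians, and no member of any list passed the threshold. Over all 9894 genes, 1.21% were lower at an unadjusted p under 0.05, and 37.0% in Tumor 1 and 49.1% in Tumor 2 were above 0. Of 12 adventitial fibroblast genes, which mark the perivascular Pi16 population, 5 were lower at an unadjusted p under 0.05 (Pi16, Dpp4, Cd34, Cd55 and Igfbp6), with a list median of -2.47 on the log2 scale against -0.06 over all genes tested. In Tumor 1 alone its median was -0.68 (-0.17 over all genes) and in Tumor 2 -2.30, so the size came mostly from Tumor 2. Values above 0 were found for 1 of the 12 in Tumor 1 and 0 of 12 in Tumor 2. Of the 15 fibroblast markers, 4 were lower at that level (Lum, Mfap5, Gsn and Pi16; median -0.96, with -0.46 in Tumor 1 and -1.62 in Tumor 2), and of 14 inflammatory fibroblast genes 2 were lower (C3 and Has1; median -1.01, with -0.82 and -0.58). Lum (lumican, a collagen-binding proteoglycan) had a log2 difference of -1.67 with SE 0.44, and Cd34 one of -2.03 with SE 0.43. The median of 15 collagens was -0.35 and that of 10 transcription factors of epithelial-mesenchymal transition -0.06, with no member at an unadjusted p under 0.05.

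No gene of the RB and p53 pathway list was called between the stromal classes, where 0 of all 9894 genes tested were called. The median over 22 RB and p53 pathway genes was 0.22 and over 20 S-phase genes 0.36, with no member at an unadjusted p under 0.05. S-phase genes were above 0 for 5 of 20 in Tumor 1 and 19 of 20 in Tumor 2, and RB and p53 genes for 6 and 20 of 22. Over 20 mitosis genes the median was 0.29, with 16 above 0 in Tumor 1 and 9 in Tumor 2. The sums of Tumor 1 rest on 15 cells and 175692 UMIs, and those of Tumor 2 on 1270287.

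Cdkn2a (chr4:89274471-89294653, mm10) was followed in detail because of its place in the RB pathway, and it was chosen with its values known. On plain CPM it stood at 96.8 in T-antigen mesenchymal, 101 in T-antigen-zero stromal and 1394 in T-antigen epithelial cells of Tumor 1, and at 1084, 523 and 1953 in those of Tumor 2. Members thus sat at the stromal level in Tumor 1 and between the other classes in Tumor 2. The log2 difference from T-antigen-zero stromal cells was 0.59 (SE 0.61, adjusted p = 1 by edgeR's quasi-likelihood test) and that from T-antigen epithelial cells -2.26 (SE 0.65, adjusted p = 0.122). In T-antigen-zero stromal cells of the other libraries Cdkn2a was at 3.16 and 1.17 CPM in Prepuberty 1 and 2, and at 14.6 and 1.95 CPM in DCIS 1 and 2, below both Tumor libraries. Leukocytes held 39.4 and 148 CPM of Cdkn2a in Tumor 1 and Tumor 2, and 0 to 16.2 CPM in the glands, so the level in cells used as the background also stood higher in the tumours. In Tumor 1, 9 of the 17 Cdkn2a UMIs of members came from 1 cell. The study's methods name another dissociation kit for tumours than for glands, whereas the labels describe 1 digestion for all, so tissue and dissociation cannot be told apart here.

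Within Tumor 2, values were set in order of T-antigen UMIs, as a description of cells of 1 library. Cdkn2a was 523 CPM in the 83 cells with 0, 749 in the 29 with 1, 1268 in the 11 with 2 and 1425 in the 21 with 3 or more, and it was detected in 54, 26, 11 and 21 of them. The median depth in the same order was 11513, 19809, 14030 and 18228 UMIs. Lgals7, a galectin of basal epithelium, stood at 137, 358, 289 and 306 CPM, against 57.0 CPM in leukocytes. Values of 4 fibroblast genes, chosen after they were seen, went the other way. Lum stood at 406, 123, 81.1 and 42.3 CPM, Apod at 228, 11.7, 0 and 2.01 CPM, and Dpt (dermatopontin) at 281, 1.66, 0 and 8.05 CPM. Pi16, a surface gene of adventitial fibroblasts, stood at 248, 1.66, 0 and 28.2 CPM, with 14 of the 15 member UMIs from 1 cell. Not all fibroblast or mesenchymal genes did so. Pdgfra, which is on the same fibroblast list as Lum, stood at 242, 243, 301 and 177 CPM, and the imprinted transcript H19 at 450, 494, 654 and 632 CPM. Vim, the mesenchymal intermediate filament gene, did fall, though less steeply than Lum, at 1459, 1293, 1065 and 878 CPM. T-antigen-bearing cells of the stromal gate in Tumor 2 thus held Pdgfra with little Lum, Dpt, Pi16 or Apod.

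**Figure D2:**
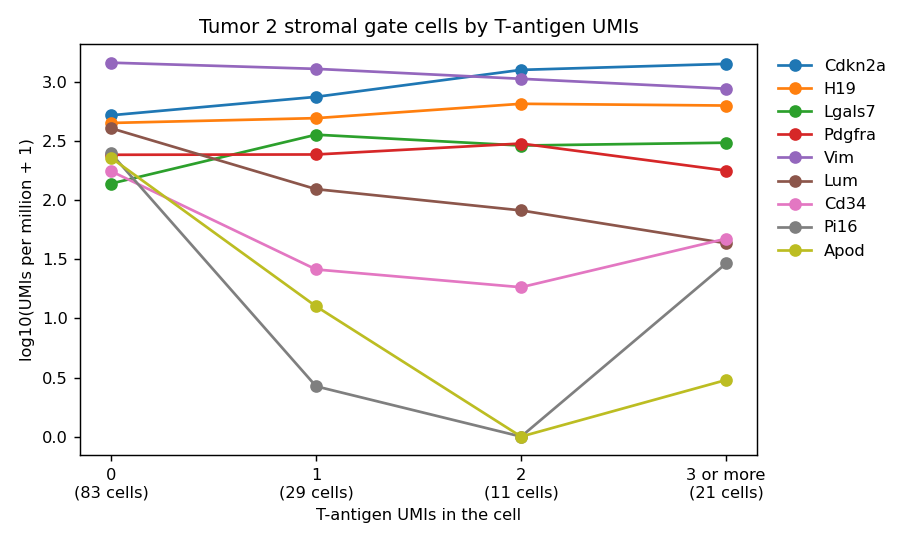
Levels of named genes in stromal-gate cells of Tumor 2 by the number of T-antigen UMIs in the cell, as log10 of plain CPM plus 1 over the summed cells of each class. Cdkn2a went from 523 CPM at 0 UMIs to 1425 CPM at 3 or more, and Lum from 406 to 42.3 CPM.

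Cdkn2a and the fibroblast genes were then counted cell by cell. Cells were split by whether they held any UMI of Lum, Dpt or Pi16, a split made after these values were seen. Of the 61 members of Tumor 2, 51 had Cdkn2a and none of the 3 genes, 7 had both, 2 had the fibroblast genes alone and 1 had neither. In the 83 T-antigen-zero stromal cells of that library the same counts were 46, 8, 27 and 2. Among members of Tumor 2 Cdkn2a was thus found in 7 of 9 cells with the fibroblast genes and in 51 of 52 without them, so the fibroblast genes did not mark cells free of Cdkn2a. Among T-antigen-zero cells it was found in 8 of 35 with them and in 46 of 48 without. In Tumor 1 the members were mostly of the other kind: 10 of 15 had the fibroblast genes alone, 3 had both, 1 had Cdkn2a alone and 1 had neither, and the 92 T-antigen-zero cells gave 51, 38, 2 and 1. Cdkn2a was thus detected in 95.1% of members of Tumor 2 and 26.7% of those of Tumor 1, and the fibroblast genes in 14.8% and 86.7%. Members of the 2 tumours thus differed in which of these genes were detected, at median depths of 9080 UMIs in Tumor 1 and 18214 in Tumor 2. Leukocytes held Cdkn2a at 39.4 CPM in Tumor 1 and 148 CPM in Tumor 2. Detection also rises with depth, so single Cdkn2a UMIs may be background, and its part in these counts was not tested.

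**Figure D3:**
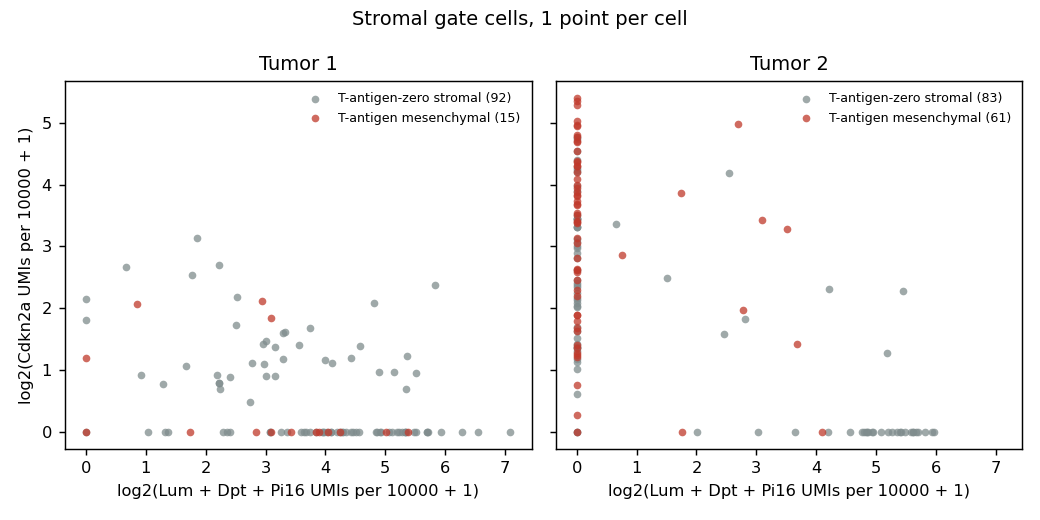
Each point is a stromal-gate cell of a Tumor library, with its Cdkn2a UMIs (vertical axis) and its summed Lum, Dpt and Pi16 UMIs (horizontal axis) per 10000 UMIs, both as log2 of the value plus 1. In Tumor 2, 51 of 61 members had Cdkn2a and none of the 3 fibroblast genes, whereas 10 of 15 members of Tumor 1 had the fibroblast genes alone.

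The split also divided the T-antigen-zero cells of Tumor 2. The 48 of them without Lum, Dpt or Pi16 held 650 CPM of Cdkn2a, 34.3 CPM of Trp63, 20.6 CPM of Cd34 and 2.74 CPM of Apod. The 52 members without these genes held 1119, 40.2, 22.9 and 0.915 CPM of the same genes. The 35 T-antigen-zero cells with Lum, Dpt or Pi16 held 262 CPM of Cdkn2a, 2.82 CPM of Trp63, 493 CPM of Cd34 and 690 CPM of Apod. Members without the fibroblast genes also held more Krt14 (143 against 52.1 CPM), Lgals7 (336 against 174) and H19 (593 against 347) than T-antigen-zero cells without them, at medians of 18700 and 13224.5 UMIs per cell. Both sets held little Cd34 and Apod beside the T-antigen-zero cells with fibroblast genes. Trp63 was at 1.08 CPM in T-antigen-zero stromal cells of Tumor 1, at 24.0 CPM in those of Tumor 2 and at 0 to 0.234 CPM in those of the 4 glands.

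Nearest neighbours, taken on 20 principal components of thinned counts without the 6 gate genes, described which cells the members were most like. In Tumor 2 the 15 nearest cells of a member were, on average, members for 53%, T-antigen-zero stromal cells for 38% and T-antigen epithelial cells for 9%. Among its stromal-gate neighbours 58.6% were members, against 44.1% of the stromal-gate cells. In Tumor 1 they were members for 21.3%, T-antigen-zero stromal cells for 78.7% and T-antigen epithelial cells for 0%, with members being 15.6% of the stromal-gate cells. Neighbours were mainly of the stromal gate, members included, for 15 of 15 and 59 of 60 members. The gate had set these cells apart from epithelial cells, and genes that follow it were kept. This placement away from epithelial cells was therefore largely built in, and no conclusion is drawn from it.

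Expression along chromosomes was compared because the study inferred copy number from it. For each chromosome the median log2 ratio of CPM over its genes was taken, less the median of all genes, as a description within a library. Against all T-antigen-zero stromal cells of the same library, members ranged from -0.06 to 0.12 over 20 chromosomes in Tumor 1 and from -0.14 to 0.07 in Tumor 2. T-antigen epithelial cells ranged from -0.35 to 0.20 and from -0.33 to 0.41. Of 6 chromosomes on which epithelial cells of Tumor 2 reached 0.2 in size, members had the same sign on 3, at 0.1 or more on 1. Since many T-antigen-zero cells of Tumor 2 also held Cdkn2a without fibroblast genes, the cells with Lum, Dpt or Pi16 were also used as the reference, a choice made after the data were seen. Members of Tumor 2 without these genes then stood at 0.26 on chromosome 3, 0.30 on chromosome 8, -0.24 on chromosome 10, -0.18 on chromosome 12 and -0.16 on chromosome 2. T-antigen epithelial cells stood at 0.25, 0.23, -0.26, -0.24 and -0.23 on the same chromosomes. On chromosome 9 they differed in sign (-0.22 and 0.07), on chromosome 7 too (0.12 and -0.27), and on chromosome X members were at -0.05 and epithelial cells at 0.43. Both classes share the reference cells, which alone can give ratios of 1 sign to both.

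T-antigen-zero cells of Tumor 2 without the fibroblast genes stood at 0.23 on chromosome 3, 0.25 on chromosome 8, -0.11 on chromosome 10, -0.08 on chromosome 12 and -0.17 on chromosome 2. Of 11 chromosomes on which epithelial cells reached 0.2 in size against this reference, members without the fibroblast genes had the same sign on 7, at 0.1 or more on 5, which are the 5 chromosomes first named above. The same counts were 8 and 5 for all members together, 6 and 3 for members with the fibroblast genes, and 6 and 4 for T-antigen-zero cells without them. In Tumor 1 all 15 members together stayed between -0.06 and 0.11 against this reference and the 2 members without the fibroblast genes ranged from -0.27 to 0.30, while epithelial cells were at -0.28 on chromosome 9 and -0.29 on chromosome 10. With stromal cells of the DCIS libraries as the reference, members of Tumor 2 ranged from -0.30 to 0.41 and T-antigen-zero stromal cells of Tumor 2 from -0.20 to 0.31. Of 10 chromosomes on which epithelial cells then reached 0.2 in size, members had the same sign on 7, at 0.1 or more on 5, and T-antigen-zero cells on 7, at 0.1 or more on 7. These medians are of expression, and DNA copy number was not analysed here.

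**Figure D4:**
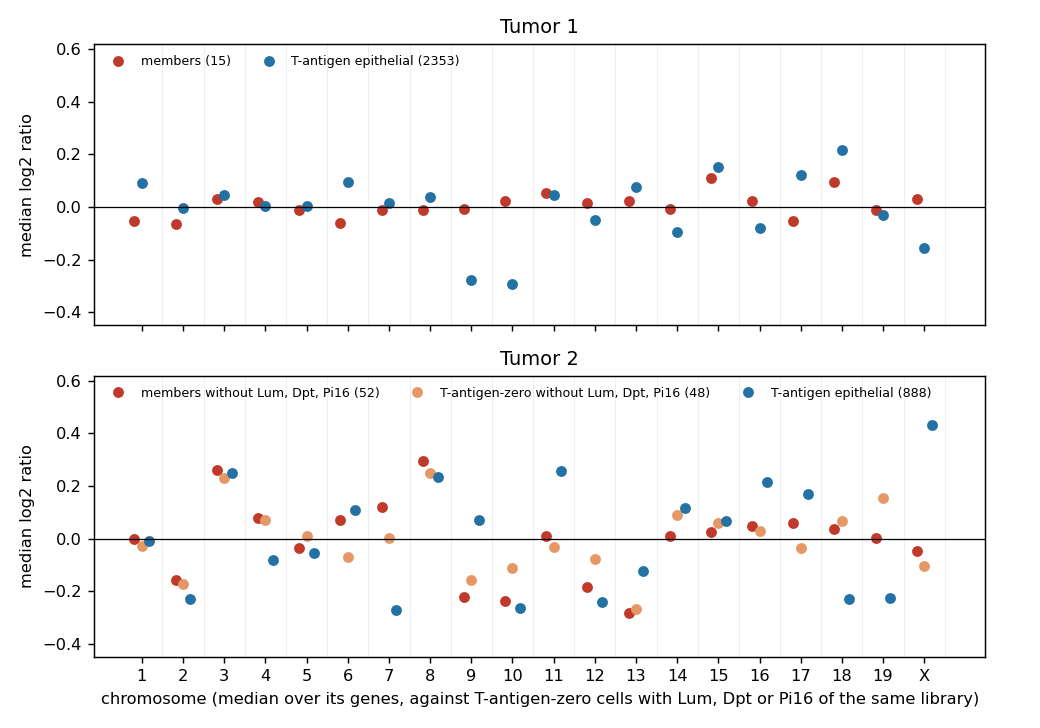
Median log2 ratio of CPM per chromosome, less the median of all genes, in Tumor 1 and Tumor 2, with T-antigen-zero stromal cells that hold Lum, Dpt or Pi16 as the reference. On chromosomes 3 and 8 of Tumor 2, members without these genes, T-antigen-zero cells without them and T-antigen epithelial cells were all above 0.2. The Tumor 1 panel shows all 15 members, between -0.06 and 0.11, since only 2 of them lacked these genes.

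The second comparison set T-antigen mesenchymal against T-antigen epithelial cells. The gate separated these classes by Epcam, Dcn and collagens, so genes that follow stromal or epithelial identity had to differ, and the counts of calls are given as a description from which nothing is read. Of 9894 genes, 414 passed an adjusted p of 0.05 in edgeR's quasi-likelihood test (4.18%), 306 higher (3.09%) and 108 lower (1.09%). Without the library as a block 37 passed. The median log2 difference over all genes was -0.11.

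Among genes higher in the mesenchymal cells were growth factor ligands and receptors. On TMM-scaled CPM, Igf1, a growth factor ligand, stood at 803 against 0.577 in Tumor 1 and 50.0 against 0.0407 in Tumor 2 (log2 difference 10.08, SE 0.75). T-antigen-zero stromal cells held Igf1 at 796 and 207 CPM, so it was not particular to the members. Both PDGF receptors were higher (Pdgfra 4.63, SE 0.35; Pdgfrb 5.90, SE 0.47), with the ligands Tgfb2 (4.44), Hgf (5.48) and Fgf7 (4.91), which made 6 of 20 growth factor genes called higher and 0 lower. The Wnt ligand gene Wnt2 had 17 and 9 UMIs in members against 3 and 0 in epithelial cells. The receptor gene Epha3 stood at 217 against 0.131 CPM and 29.3 against 0.0815 CPM, with 117 and 44.5 CPM in T-antigen-zero stromal cells.

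The matrix genes followed. Srpx2, a secreted matrix protein, had a log2 difference of 9.62 (SE 0.53), Aspn (asporin) one of 9.31 (SE 0.61), Mfap5 (a microfibril protein) one of 9.12 (SE 0.75) and Mfap4 one of 9.31 (SE 1.12). Epithelial cells held 20 and 1 UMIs of Mfap4. With 5 CPM added to both levels, its log2 ratios were 6.74 in Tumor 1 and 1.21 in Tumor 2. T-antigen-zero stromal cells held Mfap5 at 3550 and 254 TMM-scaled CPM, against 2706 and 36.7 in members. Of 15 collagens 10 were called higher, among them Col5a2 (8.58) and Col6a3 (6.37), and of 13 matrix proteases and inhibitors 7, among them the collagenase Mmp13 (7.93) and the membrane protease Mmp14 (2.31). Fibroblast markers had a median of 5.74 and were all above 0 in both libraries. Of 14 myofibroblastic genes 5 were called higher (Acta2, Postn, Cthrc1, Lrrc15 and Fap), and of 14 inflammatory genes also 5 (Il33, Il6, Il1rl1, Cxcl12 and Has1).

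Of 10 transcription factors of epithelial-mesenchymal transition that were tested, 6 were called higher and 0 lower. These were Prrx1 (6.69, SE 0.42), Prrx2 (6.07, SE 0.39), Zeb1 (3.87, SE 0.53), Twist2 (3.17, SE 0.50), Zeb2 (2.76, SE 0.37) and Tcf4 (2.38, SE 0.29). On plain CPM, Zeb1 stood at 39.8 in members and 1.62 in epithelial cells of Tumor 1, and at 152 and 14.7 in Tumor 2. T-antigen-zero stromal cells of Tumor 1 and Tumor 2 held it at 42.1 and 128 CPM. Vim had a log2 difference of 2.48 (SE 0.36) and Fn1 (fibronectin) one of 2.39 (SE 0.32). Of 11 imprinted and fetal genes 4 were called higher: Meg3 (10.16), Mest (6.05), H19 (5.16) and Ndn. Epithelial cells held 49 and 1 UMIs of Meg3. With 5 CPM added to both levels, its log2 ratios were 8.41 in Tumor 1 and 2.85 in Tumor 2. On TMM-scaled CPM, Meg3 stood at 2140 and 31.3 in members and at 3386 and 328 in T-antigen-zero stromal cells.

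Epithelial genes were lower in the mesenchymal cells. Luminal markers had a median log2 difference of -5.65, or -5.03 with the 2 genes that have no member UMI set at their bound, and none was above 0 in either library. Cdh1 (E-cadherin) stood at 6.58 against 108 TMM-scaled CPM in Tumor 1 and 0.666 against 173 in Tumor 2. The trafficking gene Rab25 had no UMI in any member and was at least 7.61-fold lower in Tumor 1 and at least 62.7-fold lower in Tumor 2, taking 3 UMIs per library as the limit of a count of 0. The tight-junction gene Cldn4 was likewise at least 3.90-fold and 24.5-fold lower, and the serpin gene Serpinb5 at least 5.65-fold and 38.6-fold. Cldn7 (-6.41, SE 0.92), Cldn3 (-6.34, SE 0.65) and the lipoprotein receptor gene Lsr (-7.58) were lower as well. The basal keratin genes Krt14 (-4.28, SE 0.39) and Krt17 (-4.98, SE 0.47) and the integrin gene Itgb4 (-3.17, SE 0.64) were lower. Of 10 basal markers tested these 3 were called lower and 1, Acta2, higher, with 4 above 0 in Tumor 1 and 5 in Tumor 2. Of 13 mammary lineage genes 6 were called lower, among them Wfdc18 (-6.83), Lcn2 (-3.51) and Sox10 (-4.92).

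Groups tied to the cell cycle gave no call in this comparison. Of 22 RB and p53 pathway genes 0 were called in either direction, with a median of -0.12 (-0.94 in Tumor 1 and 0.13 in Tumor 2 alone). Of 20 S-phase genes 0 were called, with a median of -1.26 (-2.72 and -0.20). Of 20 mitosis genes 0 were called, although 15 were lower at an unadjusted p under 0.05 (7.87% over all genes tested), with a median of -1.53 and no gene above 0 in either library. On plain CPM, the proliferation marker Mki67 stood at 11.4 in members, 9.71 in T-antigen-zero stromal and 78.5 in T-antigen epithelial cells of Tumor 1, and at 132, 85.8 and 258 CPM in Tumor 2. RAS and MAPK output, MHC class I, interferon response, glycolysis and hypoxia, and dissociation stress genes also gave 0 calls, with medians between -0.43 and 0.38. The libraries went opposite ways for RAS and MAPK output (-1.62 and 0.28), for MHC class I (-0.60 and 0.15) and for glycolysis and hypoxia (-0.89 and 0.40).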

How the data were processed

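Single-cell libraries were made with a 10x 3′ kit. The authors deposited raw UMI counts per gene and cell, 1 matrix per library, counted with Cell Ranger 3.0.2 against mm10 with the T-antigen sequence added, per the file headers, the submitters' processing notes and the study's methods. Kept cells numbered 2606 to 4476 per library, at medians of 6624 to 13745 UMIs. No normalization preceded deposit.

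The members, gene lists and named genes were chosen with earlier results of these data known. Raw UMIs were summed per Tumor library and class (3 classes, 6 sums), and fitted with edgeR 4.0.16 (TMM, filterByExpr, quasi-likelihood F test, library as a block because classes of 1 library are paired by it, R 4.3.3), adjusted by Benjamini-Hochberg with a threshold of 0.05. The 6 gate genes were not tested. Named genes shared a sign in both libraries and had a mean of at least 20 CPM. They were the 12 largest log2 differences in each direction that passed, or else the 6 smallest p. From each list, up to 4 members with the highest mean CPM and those past the threshold could be named. Genes named beyond this rule (Cdkn2a, Lgals7, Trp63, Lum, Dpt, Pi16 and list members at an unadjusted p under 0.05) were chosen after their values were seen.

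For shares, each cell was thinned to 5000 UMIs and shallower cells were left out. These were 11 and 8 cells of the stromal gate, but 149 of 233 and 128 of 222 leukocytes, in Tumor 1 and Tumor 2. Intervals are exact binomial ones at 95%. Scrublet's own threshold in scanpy 1.11.5 marked 16 and 5 cells, so the highest scores were removed at 0.8% per 1000 cells, as an alternative. Gene positions came from GENCODE annotation of GRCm38 (mm10). Steps were tested on simulated data. DESeq2 1.42.0 and the other alternatives are given in the closing section. Some of the named genes are not reported here.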

Additional observations from a re-analysis of the deposited data

How the results depend on the processing

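Against T-antigen-zero stromal cells, 0 genes passed the threshold, also with RLE size factors, a mitochondrial limit of 5%, doublets left out and cells thinned to 5000 UMIs. The count was also 0 with cells with epithelial UMIs left out, which kept only 3 and 13 members. The count was 54 with no filter on low counts, 1 with DESeq2, 44 with at least 2 T-antigen UMIs and 14 with only the classes compared. Against T-antigen epithelial cells, 414 became 1519 with no filter, 904 with DESeq2 and 880 with only the classes compared. Classes of 1 library are paired by it, and without the library as a replicate block the counts were 0 and 37, and 19 of the 24 named genes of the second comparison were no longer called. With DESeq2 2 of the 24 (Rab25 and Smim22) lost their call, and with epithelial UMIs left out 2 (Nnmt and Wnt2). The causes were not tested.

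With at least 2 T-antigen UMIs the differences of Acta2 (-0.83), Cxcl10 (-1.50) and Jpt1 (-0.12) from T-antigen-zero stromal cells turned, as did Cxcl10 (-2.80) and Jpt1 (-0.40) with epithelial UMIs left out and Lad1 (-0.0498) after thinning. The share of stromal-gate cells with T antigen was 0.935% and 22.2% in Tumor 1 and Tumor 2 with at least 2 UMIs, and 6.82% and 24.5% with epithelial UMIs left out. Leaving out epithelial UMIs kept 3 of 15 and 13 of 61 members. Of T-antigen-zero stromal cells it kept 41 of 92 and 40 of 83, a larger share in both libraries. After thinning, the T-antigen level of the stromal gate went from 14.5 to 22.9 CPM in Tumor 1 and from 52.7 to 42.6 CPM in Tumor 2. Members' chromosome medians, with references chosen after the data were seen, reached -0.15 in Tumor 1 with DCIS stromal cells, and in Tumor 2 -0.30 and 0.41 with these and -0.29 and 0.28 with cells that hold Lum, Dpt or Pi16. The 24 and 12 named genes were chosen to share a sign in both libraries. Leaving out 1 library could therefore not turn any sign.

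Leaving out the Apod-rich cell of Tumor 1, chosen after the data were seen, gave 0 and 416 calls. With 2 libraries and 15 members in Tumor 1, a difference that was not called may still be there, and single cells carry much of a gene's UMIs.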
